A study of Mus musculus with 55 samples.

Results

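The genes described here encode 10 proteins of lipoprotein assembly and sterol efflux: Apoa1, Apoa4, Apob, Mttp, Pltp, Lpl, Lipc, Abca1, Abcg5 and Abcg8. They were chosen by name, as a list, with earlier results of these data known. Each was matched by its symbol among the 34490 symbols that the count tables of both sequencing batches share. All 10 passed the filter on low counts in every model. RNA was read from whole livers of C57BL/6 mice in which Rnf43 and Znrf3, the membrane ubiquitin ligases that lower WNT receptor levels, had been deleted in hepatocytes (R&Zdel), and of R&Zflox controls. The study compared them without damage, during recovery from repeated CCl4 (chronic damage, CD) and after partial hepatectomy (PHx).

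Both genotypes carried floxed RING-domain exons of both genes. In R&Zdel mice these exons were removed in adults, either by tamoxifen in mice with AlbCreERT2, a Cre driven by the albumin promoter, or by AAV8-TBG-Cre, a virus whose promoter is active in hepatocytes. R&Zflox mice received vehicle or a virus without Cre. Recombination was induced at 8 weeks of age or later, and other liver cells kept intact alleles. Without damage, 1 month after deletion (1M) was covered by 4 R&Zdel and 4 R&Zflox livers. The 3M group held 2 R&Zdel and 5 R&Zflox livers, and the 7M group 5 of each genotype. Both sexes were present in each genotype at 1M. Of the other compared livers, the R&Zdel 3M liver of batch 1, 1 R&Zflox 7M liver of batch 1 and 1 R&Zdel PHx 21d liver were female. The rest were male. After PHx there were 3 and 3 livers at 7 days and 3 and 3 at 21 days. After the last of the CCl4 injections there were 2 and 2 livers at 4 days, 2 and 1 at 50 days, and 2 and 2 at 170 days. By the study's timeline, livers at 4 days fell between 1M and 3M after deletion. Those at 50 days fell at 3M and those at 170 days at 7M, so that recovery time and time after deletion cannot be told apart. The CD libraries were all of batch 1 and of male mice, and the 1M and PHx libraries were all of batch 2, so that the kind of damage and the batch cannot be told apart. The virus was the route of deletion for all 1M and PHx groups and tamoxifen for all 7M and CD groups, and at 3M batch 1 was of the tamoxifen and batch 2 of the virus route, so that route cannot be told apart from these either.

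Lipoproteins carry cholesterol and triglyceride through the blood. In the hepatocyte, MTTP loads lipid onto apolipoprotein B to start a very low density lipoprotein (VLDL), while apolipoprotein A1, with lipid handed over by ABCA1, forms high density lipoprotein. LPL and LIPC hydrolyse lipoprotein lipids in vessels, PLTP moves phospholipid between particles, and ABCG5 and ABCG8 together pump sterols from the hepatocyte into bile.

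The count tables held 53 libraries with 11721687 to 38692089 counts each, with a median of 22982428, and the lowest count of any of the 10 genes in a library was 77, of Lpl, at 7.30 CPM (a gene's counts relative to the TMM-adjusted total of its library). The deleted exons are part of each targeted gene, and counts over the whole genes were higher in undamaged R&Zdel livers, by a log2 fold change of 1.66 ± 0.28 (SE) for Rnf43 and 1.41 ± 0.18 for Znrf3, so that they do not check the labels. The 10 hepatocyte markers, led by Alb, summed to 44766 to 81518 CPM in R&Zdel and 89325 to 140571 CPM in R&Zflox libraries, with no overlap. The 10 pericentral genes (such as Glul) summed to 25302 to 41628 CPM in undamaged R&Zdel and 9892 to 15630 CPM in undamaged R&Zflox livers, and the 10 periportal genes to 1514 to 5493 and 4205 to 9532 CPM. In whole tissue, fewer cells of a type and less RNA per cell cannot be told apart.

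Per length, the 10 genes spanned more than 3 orders of magnitude in undamaged R&Zflox livers, from Apoa1 at the top to Lpl at the bottom in both batches. On the scale of CPM per kilobase of exon, Apoa1 stood at 26817 ± 5728 (SD, n = 4) in batch 1 and 27822 ± 3805 (n = 10) in batch 2. Apoa4, its neighbour in the genome, followed at 404 ± 396 and 263 ± 213. No Apoa4 value reached the lowest Apoa1 value in either batch, and Apoa4 was the most variable of the genes relative to its mean in batch 1.

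Lipc, the hepatic lipase, lay at 108 ± 4.86 CPM per kilobase in batch 1 and 112 ± 31.8 in batch 2. Apob stood at 63.5 ± 9.97 and 98.0 ± 9.75, and Mttp, its lipid-loading partner, at 33.4 ± 7.24 and 43.5 ± 11.2. Pltp, at 88.5 ± 63.9 and 55.8 ± 23, changed place with Apob between the batches, and the libraries of these neighbours overlapped.

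The sterol pumps were the lower part of the order, with Abcg5 at 22.5 ± 7.10 and 24.5 ± 14.8 CPM per kilobase. Abcg8 stood at 9.55 ± 3.07 and 8.44 ± 5.95, and Abca1 at 6.32 ± 1.26 and 8.44 ± 1.72. Lpl, which is mainly made by fat, muscle and macrophages, was lowest at 3.60 ± 1.66 and 5.67 ± 5.86. Between neighbours in this order, batch 1 libraries did not overlap for Apoa1 and Apoa4, Apoa4 and Lipc, Apob and Mttp, and Abcg5 and Abcg8, whereas in batch 2 only Apoa1 and Apoa4 were apart.

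**Figure D1:**
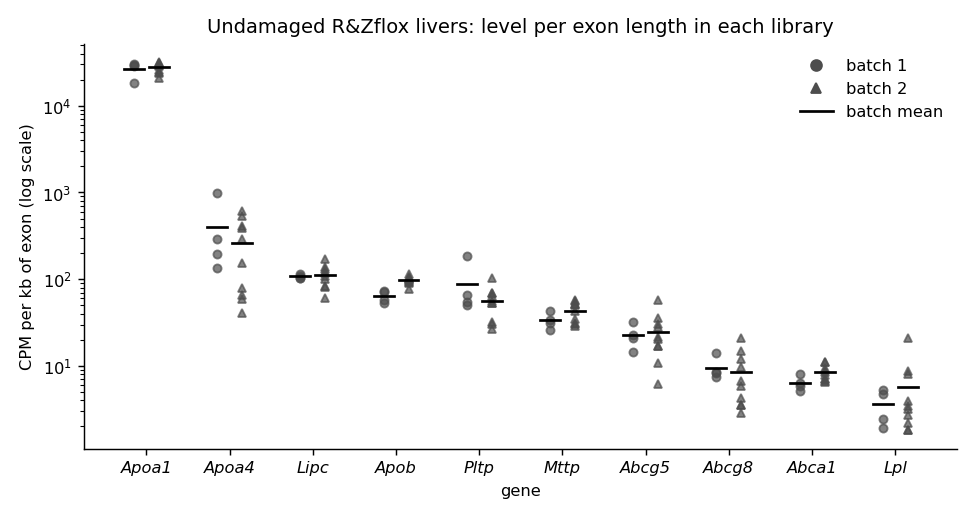
Level per exon length (CPM per kilobase, log scale) of the 10 genes in undamaged R&Zflox livers, with a circle for each of 4 libraries of batch 1, a triangle for each of 10 of batch 2 and a bar for the batch mean. Apoa1 averages 26817 and 27822 in the batches, far above the other genes, and Lpl is lowest.

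Of the 6 adipocyte markers, Lep was at 0 in 50 of 50 libraries of known group, Plin1 in 49, Adipoq in 44 and Retn in 38, while Cfd, at 0 in 25, reached 68.6 CPM and Cidec, at 0 in 7, reached 25.6 CPM. Of the 6 muscle markers, Myh4 was at 0 in 50 libraries, and Mylpf, at 0 in 13, and Acta1, at 0 in 37, reached 8.84 and 8.77 CPM. For Apoa4, which the intestine also makes, 6 intestinal markers were read. The factors Cdx1 and Cdx2 were at 0 in 49 and 46 of 50 libraries. Sis, at 0 in 45, Muc2, at 0 in 38, and Vil1, at 0 in 28, reached 4.26, 4.19 and 26.1 CPM. Fabp2, a fatty acid binding protein of the same list, was at 40.3 to 458 CPM in all 50.

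In undamaged livers the phospholipid transfer gene Pltp and the sterol pump gene Abcg8 were higher in R&Zdel than in R&Zflox mice, while the genes of VLDL assembly, Apob and Mttp, did not pass the test. Over the mean of the 3 time points, 2 of the 10 genes were called at an adjusted p under 0.1 (edgeR), against 2.58% of the 12848 genes tested. Because the study had already reported Pltp, Lpl and Abcg8 as upregulated in these mice, these calls are not independent of the list. At single time points the calls were 0 of 10 at 1M (0.498% of all genes), 0 of 10 at 3M (0.226%) and 1 of 10 at 7M (0.576%). DESeq2's Wald test called 0, 2 and 3, and as its shares of all genes are not given here, these counts have no background.

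Pltp encodes the plasma phospholipid transfer protein, on the minus strand of chromosome 2 at positions 164839518 to 164857708 (mm10). The 250 bases before its start, shown because Pltp was the member called most firmly in undamaged livers, are given from RefSeq (GRCm38.p6, chr2:164857709-164857958, minus strand), with a GC box (GGGCGG, here as its reverse complement) in capitals.
Pltp: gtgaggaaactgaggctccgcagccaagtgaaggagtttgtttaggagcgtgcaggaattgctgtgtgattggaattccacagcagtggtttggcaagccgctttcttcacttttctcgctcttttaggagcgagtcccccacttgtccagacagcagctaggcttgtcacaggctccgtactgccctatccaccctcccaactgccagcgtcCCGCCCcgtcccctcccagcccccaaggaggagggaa

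A GC box on either strand was held by 32.7% of 32851 such windows of 250 bases. The Pltp window held neither a TCF/LEF site (CTTTGAA or CTTTGAT, in 7.48% of windows) nor an LXR element (AGGTCA repeated after a gap of 4 bases, in 0.0152%). These are letter matches only, and no match in this window says nothing of binding elsewhere.

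At 7M, Pltp stood at 542, 580, 549, 364 and 382 CPM in R&Zdel livers. In R&Zflox livers it stood at 118, 91.2, 95.6, 125 and 187 CPM. Every R&Zdel value lay above every R&Zflox value, in both batches, where 20.9% of all genes in batch 1 and 5.50% in batch 2 did so. The means were 483 ± 102 (SD, n = 5) and 123 ± 38.1 CPM (n = 5), and the log2 fold change was 1.89 ± 0.39 (SE, adjusted p = 0.0214, edgeR).

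Within a batch the difference at 7M kept its size but not its call, at 2.24 in batch 1 (adjusted p = 0.731) and 1.67 in batch 2 (adjusted p = 0.282), and the adjusted p over all alternatives ran from 3.07e-05 to 0.731. At 3M, the R&Zdel livers stood at 480 CPM in batch 1 (a female) and 324 in batch 2 (a male). The R&Zflox livers, all male, stood at 97.8 and 332 CPM in batch 1 and at 96.2, 102 and 58.2 CPM in batch 2. One control of batch 1 thus reached the level of the R&Zdel livers, and the log2 fold change of 1.69 ± 0.50 was not called (adjusted p = 0.347, edgeR).

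At 1M, Pltp stood at 261 and 208 CPM in female and 73.3 and 128 CPM in male R&Zdel livers. In R&Zflox livers it stood at 55.3 and 47.7 CPM in females and 117 and 125 CPM in males. The females were apart and the males overlapped, and the log2 fold change with sex in the model was 1.03 ± 0.44 (adjusted p = 0.545, edgeR). Over the mean of the 3 time points it was 1.54 ± 0.26 (adjusted p = 0.00102, edgeR), and this call was kept in 36 of 36 alternatives. The differences between time points called no gene of 12848 by edgeR, with 5.10% (3M minus 1M), 5.85% (7M minus 1M) and 4.18% (7M minus 3M) of genes at an unadjusted p under 0.05, and no member by DESeq2, which called 32 to 107 genes.

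Lpl, lipoprotein lipase, varied widely among livers. It stood at 17.4, 42.6, 59.2 and 119 CPM in R&Zdel livers at 1M and at 35.7, 32.7, 11.0 and 12.8 CPM in R&Zflox livers. At 7M the R&Zdel values ran from 7.91 to 68.8 CPM and the R&Zflox values from 7.81 to 84.1 CPM, a full overlap. Over the 3 time points the log2 fold change was 1.09 ± 0.41 (adjusted p = 0.223, edgeR), which was not called. Lipc, which hydrolyses triglyceride and phospholipid of remnants, had overlapping ranges at 1M (286 to 440 against 299 to 380 CPM) and 7M (263 to 384 against 224 to 461 CPM). Its log2 fold change over the time points was 0.12, with a 95% interval of -0.15 to 0.39.

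Abcg5 and Abcg8 lie head to head on chromosome 17, Abcg5 at 84658174 to 84683011 on the minus strand and Abcg8 at 84676302 to 84700333 on the plus strand (mm10). An annotated Abcg8 start at 84676302 lies within Abcg5, and another, at 84683121, lies just outside it. Shown are the 109 bases between the Abcg5 start and this outer Abcg8 start (GRCm38.p6 from RefSeq, chr17:84683012-84683120, plus strand). They were chosen because transcripts of both subunits of the pump start beside them. The GATA motif AGATAA is in capitals where it reads as its reverse complement.
Abcg5-Abcg8: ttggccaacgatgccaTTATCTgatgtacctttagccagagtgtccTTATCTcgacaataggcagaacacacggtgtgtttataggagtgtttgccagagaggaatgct

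The GATA motif was held by 9.99% of the 32851 windows on either strand. It occurs 2 times in the 250 bases before the Abcg5 start and 3 times in those before the outer Abcg8 start, and these windows overlap. The window before the Abcg8 start within Abcg5 held no GATA motif. None of these windows held the TCF/LEF or LXR letters. The annotated exons of both genes share 40 bases on opposite strands, and because reads were counted without strand, reads there cannot be told apart.

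Abcg8 stood at 95.7, 73.5, 114, 85.9 and 137 CPM in R&Zdel livers at 7M. The R&Zflox livers stood at 52.9, 30.9, 36.5, 55.9 and 78.2 CPM. The highest control lay just above the lowest R&Zdel liver, and the other values were apart. At 3M, the R&Zdel livers stood at 78.5 and 57.4 CPM and the R&Zflox livers at 31.7, 27.7, 21.8, 10.8 and 13.3 CPM, with no overlap. Within a batch, R&Zdel lay above the controls at 3M for 33.7% of all genes in batch 1 and 25.5% in batch 2. The R&Zdel liver of batch 1 was female and the controls were male, so that sex and genotype cannot be told apart there. At 1M the values mixed, with 20.7 to 37.5 CPM in R&Zdel and 13.3 to 45.5 CPM in R&Zflox livers.

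For Abcg8 no single time point was called, with log2 fold changes of 0.36 ± 0.39 (1M), 1.85 ± 0.47 (3M) and 0.97 ± 0.35 (7M). Over the mean of the time points it was 1.06 ± 0.23 (adjusted p = 0.0139, edgeR). Leaving out any 1 library kept this call, and in male mice alone the fold change was 0.77 with an adjusted p of 0.349, against a range of 0.000842 to 0.349 over the alternatives.

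Its partner Abcg5 stood at 15.5 to 133 CPM in R&Zdel livers at 3M and at 52.2 to 159 CPM at 7M. In R&Zflox livers it stood at 15.1 to 49.9 and 55.4 to 140 CPM. Over both batches the groups overlapped at each time. Within batch 1 the R&Zdel livers lay above the controls at 3M, at 133 against 35.2 and 49.9 CPM, and at 7M, at 159 and 96.1 against 76.5 and 55.4 CPM, as did 33.7% and 20.9% of all genes there. The R&Zdel liver at 3M in batch 1 was female and its controls male, so that sex and genotype cannot be told apart there. The log2 fold change over the time points was 0.28, with a 95% interval of -0.29 to 0.85. Within a library, the ratio of Abcg8 to Abcg5 per kilobase ran from 0.388 to 0.492 in batch 1 at 7M in R&Zdel livers, and from 0.387 to 1.69 in batch 2. The highest ratio, 2.39, was that of the R&Zdel liver of batch 2 at 3M, where Abcg5 stood at 15.5 CPM.

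Abca1, the cholesterol pump that lipidates apolipoprotein A1, ranged from 41.2 to 85.2 CPM in R&Zdel and 53.5 to 117 CPM in R&Zflox livers at 7M. Its log2 fold change over the time points was -0.39, with a 95% interval of -0.70 to -0.08 and an adjusted p of 0.276 (edgeR).

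Among the apolipoproteins, Apoa1 stood at 16531 to 24123 CPM in R&Zdel and 23399 to 30807 CPM in R&Zflox livers at 1M. At 7M it stood at 21587 and 32768 CPM in R&Zdel livers of batch 1 and at 56671, 24873 and 77660 CPM in those of batch 2. The R&Zflox livers at 7M stood at 18076 to 31009 CPM, so that 3 R&Zdel livers lay above every control and the others overlapped them. Neither the fold change of -0.40 ± 0.27 at 1M nor that of 0.62 ± 0.25 at 7M was called (log2, adjusted p = 0.869 and 0.444, edgeR). With the 1M libraries fitted alone, Apoa1 passed at 1M, at -0.40 (adjusted p = 0.0741, edgeR, the lowest of its alternatives, which reached 1).

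Apoa4, an apolipoprotein of triglyceride-rich particles, varied widely among controls, from 67.4 CPM at 7M to 1650 CPM at 3M. At 7M it stood at 1613 and 941 CPM in R&Zdel livers of batch 1 and at 250, 69.5 and 593 CPM in those of batch 2. The R&Zflox livers stood at 326 and 490 CPM in batch 1 and at 67.4, 132 and 97.4 CPM in batch 2. The R&Zdel livers of batch 1 were both higher than the controls of that batch, as for 20.9% of all genes there. Those of batch 2 overlapped their controls, and the log2 fold change of 1.82 ± 0.65 was not called (adjusted p = 0.37, edgeR).

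Apob, the structural protein of VLDL, and Mttp, which loads it, stayed closest to the controls. Apob ranged from 1176 to 1347 CPM in R&Zdel and 1301 to 1487 CPM in R&Zflox livers at 1M, and from 755 to 1535 against 735 to 1434 CPM at 7M. Its log2 fold change over the time points was -0.07, with a 95% interval of -0.27 to 0.13, the narrowest of the 10. Mttp gave -0.06 (-0.35 to 0.22). Without TMM scaling, which moved the median of all genes at 1M by 0.18, the fold changes at 1M of Apob, Mttp and Lipc changed sign.

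The study judged its lipid genes at an unadjusted p under 0.05 with a log2 fold change over 0.4. The thresholds are applied here to edgeR's quasi-likelihood p-values, where the study names a likelihood ratio test, and to a set of libraries that differs from the study's. By that rule 1 member passed at 1M (Pltp), against 7.73% of all genes, and 2 at 3M (Abcg8 and Pltp), against 6.43%. At 7M 4 members passed (Abcg8, Apoa1, Apoa4 and Pltp), against 8.81%, and over the mean of the times 3 did (Pltp, Abcg8 and Lpl), against 11.0%.

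**Figure D2:**
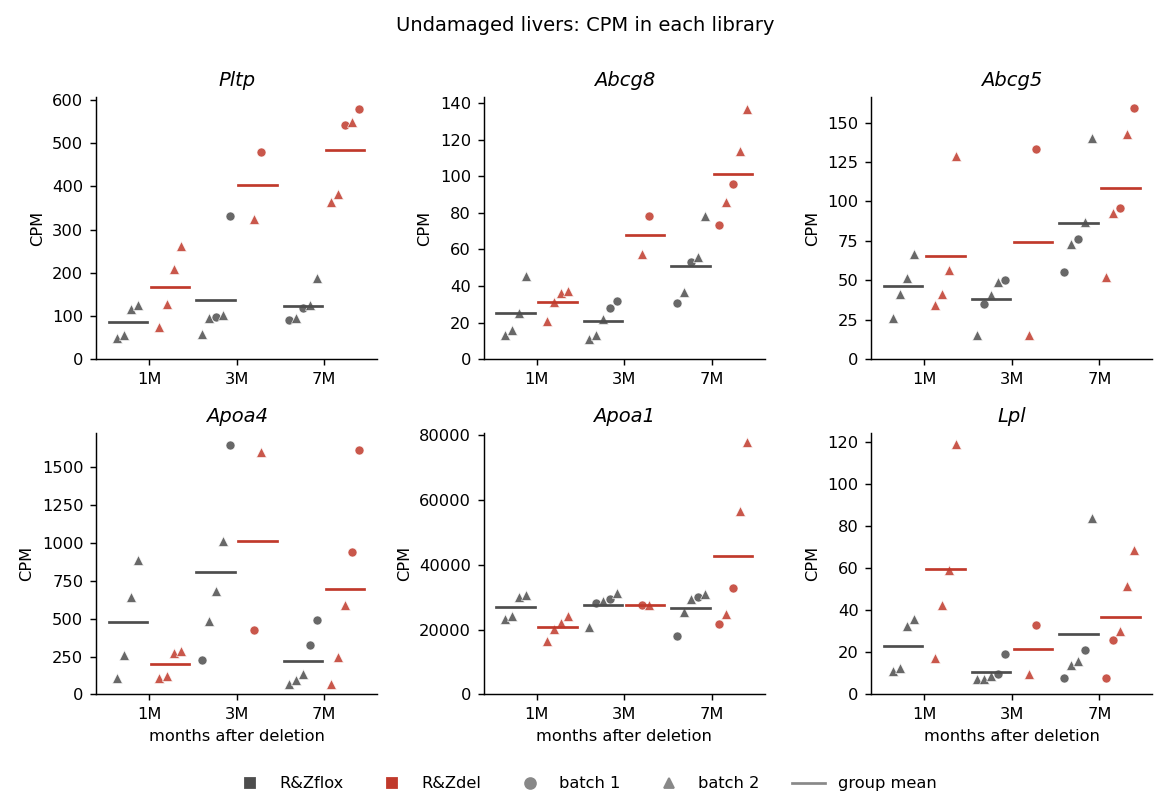
CPM of 6 genes in each undamaged liver by months after deletion, R&Zflox in grey and R&Zdel in red, batch 1 as circles and batch 2 as triangles, with a bar for the group mean. At 7M all 5 R&Zdel values of Pltp, 364 to 580, lie above all 5 R&Zflox values, 91.2 to 187, while Abcg5, Apoa4 and Lpl overlap.

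**Figure D3:**
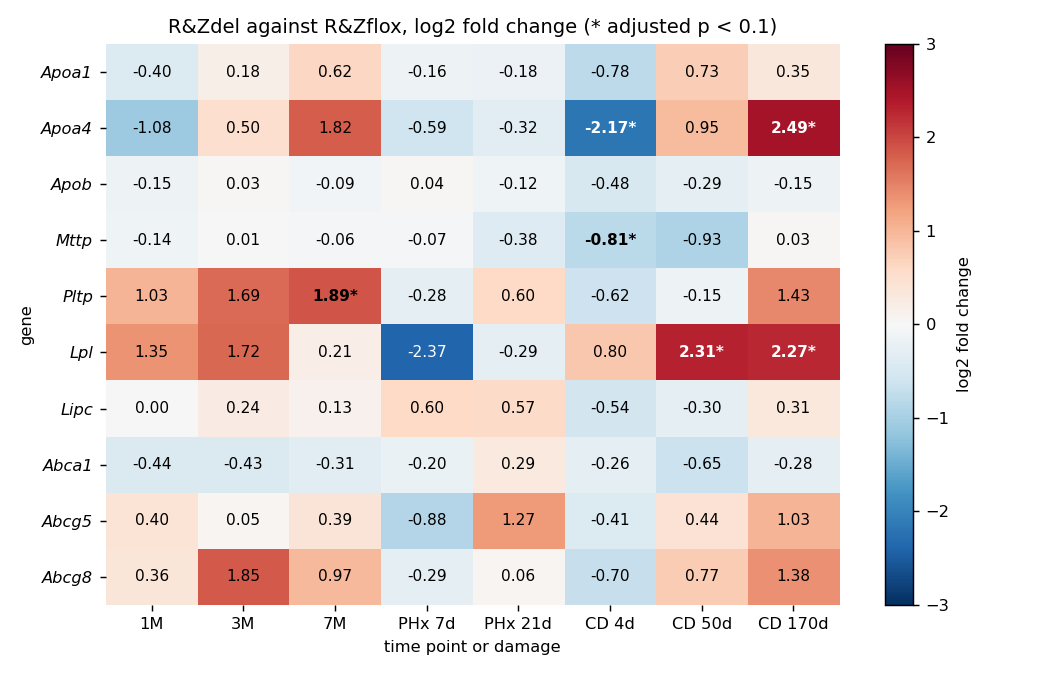
Log2 fold change of R&Zdel over R&Zflox for the 10 genes (rows) at each time point or damage (columns), with the value in each cell and an asterisk at an adjusted p under 0.1. The called cells are Pltp at 7M, Apoa4 and Mttp at CD 4d, Lpl at CD 50d, and Apoa4 and Lpl at CD 170d.

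After partial hepatectomy, which removes lobes of the liver so that the rest regrows, 0 of the 10 genes were called between genotypes by edgeR at 7 days, against 0.352% of 12773 genes, or at 21 days, against 0.423%. DESeq2's Wald test called 1 at 7 days and none at 21 days, with its shares of all genes not given here. At an unadjusted p under 0.05, 3 members passed at 7 days (Lpl, Lipc and Abcg5), against 5.93% of all genes, and 2 passed at 21 days (Abcg5 and Lipc), against 8.67%. The study's PHx rule also asked for a log2 fold change over 1, which Lpl passed at 7 days (3.99% of all genes) and Abcg5 at 21 days (6.56%).

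Lipc was apart between genotypes at both times, while Lpl was at 7 days and Abcg5 and Mttp were at 21 days. At 7 days it stood at 265, 307 and 303 CPM in R&Zdel and at 257, 168 and 161 CPM in R&Zflox livers. At 21 days it stood at 378, 331 and 321 CPM in R&Zdel and at 235, 206 and 233 CPM in R&Zflox livers. Each R&Zdel value lay above each R&Zflox value of its time, as for 6.00% of 10693 genes at 7 days and 5.90% of 10320 genes at 21 days. The differences were log2 fold changes of 0.60 ± 0.20 at 7 days (adjusted p = 0.573, edgeR) and 0.57 ± 0.21 at 21 days (adjusted p = 0.451), and neither was called. At 1M without surgery the genotypes overlapped for Lipc, and the R&Zflox livers at 7 days lay below those at 1M with a log2 fold change of -0.72 ± 0.21 that was not called (adjusted p = 0.635, edgeR).

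Mean Abcg5 of R&Zdel livers lay below that of the controls at 7 days and above it at 21 days, without passing the test. At 7 days Abcg5 stood at 37.9, 34.9 and 23.8 CPM in R&Zdel and at 59.1, 36.1 and 84.6 CPM in R&Zflox livers, an overlap. At 21 days it stood at 101, 122 and 118 CPM in R&Zdel and at 45.1, 55.6 and 20 CPM in R&Zflox livers. Each R&Zdel value then lay above each control, as for 5.90% of all genes. The log2 fold change was -0.88 ± 0.41 at 7 days and 1.27 ± 0.42 at 21 days, and the difference between the times, 2.15 ± 0.59, was not called (adjusted p = 0.774, edgeR). Abcg8, in contrast, stood at 33.0, 35.1 and 49.6 CPM in R&Zdel and at 34.8, 28.2 and 50.0 CPM in R&Zflox livers at 21 days, an overlap. The difference between both genes in this was not tested.

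Lpl at 7 days was far higher in 1 liver than in the others. It stood at 19.3, 32.3 and 5.96 CPM in R&Zdel and at 32.8, 41.3 and 229 CPM in R&Zflox livers. The control at 229 was the highest Lpl value of the series' grouped libraries, and the log2 fold change of -2.37 ± 0.71 was not called (adjusted p = 0.363, edgeR). The change from 1M to 7 days differed between genotypes by -3.74 ± 0.93 for Lpl (adjusted p = 1, edgeR). Pltp, at 73.3, 100 and 51.5 CPM in R&Zdel and 95.9, 28 and 153 CPM in R&Zflox livers at 7 days, overlapped, and its change from 1M to 7 days did not pass between genotypes (log2 -1.36 ± 0.85, adjusted p = 1, edgeR). At 21 days it stood at 248, 103 and 83.3 against 49.4, 205 and 47.4 CPM. Of the VLDL genes, Apob ranged from 1103 to 1609 CPM over the PHx livers and overlapped between genotypes at both times. Mttp overlapped at 7 days, and at 21 days it stood at 168, 111 and 122 CPM in R&Zdel and at 203, 174 and 175 CPM in R&Zflox livers. Each R&Zdel value of Mttp then lay below each control, as for 6.15% of genes, and the log2 fold change of -0.38 ± 0.25 was not called (adjusted p = 0.697, edgeR). Between PHx at 7 days and 1M of the same genotype no member was called, against 0.0235% of genes in R&Zflox and 0.0157% in R&Zdel livers (edgeR). DESeq2 called 1 and 0, with its shares of all genes not given here. At an unadjusted p under 0.05, Lpl and Lipc passed in R&Zflox livers (5.79% of all genes) and Lpl in R&Zdel livers (4.99%).

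**Figure D4:**
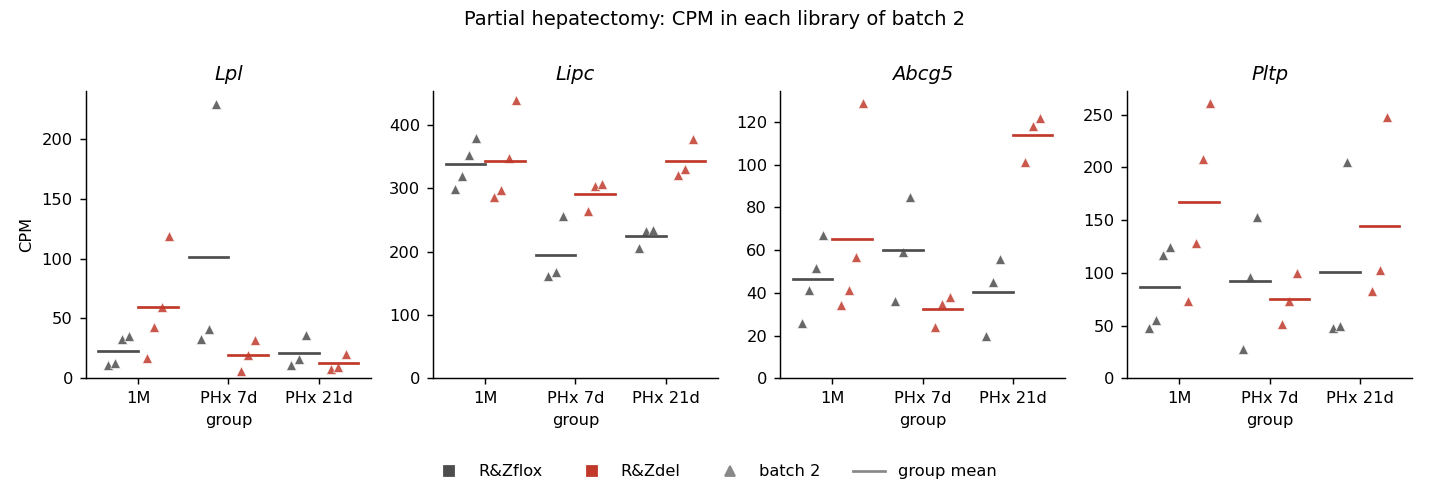
CPM of Lpl, Lipc, Abcg5 and Pltp in each library of batch 2 at 1M without surgery and at 7 and 21 days after PHx, R&Zflox in grey and R&Zdel in red, with a bar for the group mean. The R&Zdel values of Lipc lie above the R&Zflox values at both times after surgery, and 1 R&Zflox liver at 7 days holds Lpl at 229.

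CCl4 damages the pericentral hepatocytes that activate it, and mice received it in repeated injections over several weeks. Apoa4 was lower in R&Zdel than in R&Zflox livers at 4 days and higher at 170 days, and Lpl was higher at 50 and 170 days. At 4 days, 2 of 10 genes were called, at a time when 27.6% of the 11358 genes tested were called, so that the members' share lay below the background. At 50 days 1 was called, against 7.60%, and at 170 days 2 were, against 0.643%. With 1 or 2 livers a group, ranges that did not overlap were common, and were found for 68.2% of all genes at 4 days, 75.2% at 50 days and 37.7% at 170 days.

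Apoa4 lies on chromosome 9 at 46240844 to 46243458 (plus strand, mm10), downstream of Apoa1 at 46228630 to 46230469. The 250 bases before its start (GRCm38.p6 from RefSeq, chr9:46240594-46240843, plus strand) are shown because its genotype difference turned between 4 and 170 days, with the HNF4A core CAAAGTTCA in capitals, a sequence that nuclear receptors of apolipoprotein genes bind.
Apoa4: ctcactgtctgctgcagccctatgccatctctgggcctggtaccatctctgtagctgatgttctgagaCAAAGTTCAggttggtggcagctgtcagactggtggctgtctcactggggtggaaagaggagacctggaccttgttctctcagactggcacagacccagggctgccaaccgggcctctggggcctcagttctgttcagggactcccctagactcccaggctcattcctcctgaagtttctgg

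The core (CAAAGTCCA or CAAAGTTCA, either strand) was held by 0.715% of the 32851 windows and by no other member's window, and its letters were chosen after the windows had been seen. A TCF/LEF match was found before Apob only among the 9 members with a window. The letters of the LXR element, of DR1 (AGGTCA repeated after a gap of 1 base, in 0.0335% of all windows) and of HNF1 (GTTAAT and ATTAAC with a gap of 1 base, in 0.00913%) were found before none of them.

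At 4 days after CCl4, Apoa4 stood at 605 and 619 CPM in R&Zdel livers. It stood at 3258 and 2472 CPM in R&Zflox livers. These controls held the highest values of all grouped libraries, and the log2 fold change was -2.17 ± 0.33 (adjusted p = 0.00465, edgeR), kept in 12 of 12 alternatives. At 50 days it stood at 591 and 1062 CPM against 440 CPM in the single control. At 170 days it stood at 1802 and 2171 CPM in R&Zdel and at 415 and 293 CPM in R&Zflox livers, again with no overlap but on the other side, by 2.49 ± 0.34 (adjusted p = 0.0241, edgeR).

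The call at 170 days rested on 1 library, since without R&Zdel replicate 2 the fold change was 2.35 with an adjusted p of 0.21, and over all alternatives the adjusted p ran from 2.64e-13 to 0.21. The turn itself was tested: the log2 fold change at 170 days minus that at 4 days was 4.65 ± 0.47 (adjusted p = 0.00786), and at 50 days minus 4 days 3.12 ± 0.54 (adjusted p = 0.0476, edgeR). The latter call was lost on leaving out any 1 of the 4 CD 4d libraries (adjusted p 0.103 to 0.16) and kept in 9 of 13 alternatives. Of the members 2 were called in the first of these differences (7.66% of all genes) and 1 in the other (1.50%). The difference of 170 from 4 days for Apoa4 was kept in 15 of 15 alternatives. The intestinal list's Fabp2 also differed at 4 days, at 41.6 and 194 CPM on average (log2 -2.16 ± 0.35), and its part in the result was not tested.

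Apoa1, beside it on the chromosome, stood at 19717 and 13631 CPM in R&Zdel and at 30055 and 29549 CPM in R&Zflox livers at 4 days. The groups were apart, as for 68.2% of all genes at 4 days, with a log2 fold change of -0.78 ± 0.41 that was not called (adjusted p = 0.204, edgeR). At 170 days they overlapped, at 24491 and 30105 against 17416 and 25328 CPM.

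Mttp stood at 84.7 and 87.8 CPM in R&Zdel and at 158 and 157 CPM in R&Zflox livers at 4 days. It was lower in both R&Zdel livers, by a log2 fold change of -0.81 ± 0.26 (adjusted p = 0.062, edgeR). The call was lost on leaving out any of the 4 libraries (adjusted p 0.174 to 0.199) and without TMM scaling, at -0.30 (adjusted p = 0.466), with adjusted p values from 0.004 to 0.466 over all alternatives. At 50 days Mttp stood at 67.9 and 99.3 against 164 CPM (log2 -0.93 ± 0.31, adjusted p = 0.129), and at 170 days the genotypes overlapped, at 170 and 133 against 114 and 183 CPM. Apob stood at 636 and 494 against 820 and 817 CPM at 4 days, and its fold change of -0.48 ± 0.21 was not called (adjusted p = 0.133, edgeR) and changed sign without TMM scaling, which moved the median of all genes by 0.51 there.

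Lpl rose in both genotypes at 4 days and was higher in R&Zdel livers at 50 and 170 days, but no change of the genotype difference was called. At 4 days Lpl stood at 110 and 168 CPM in R&Zdel and at 46.7 and 120 CPM in R&Zflox livers, an overlap (log2 0.80 ± 0.38, adjusted p = 0.165, edgeR). The fold change at 170 days minus that at 4 days, 1.47 ± 0.54, was not called (adjusted p = 0.157, edgeR). Nor was that at 50 days minus 4 days, 1.51 ± 0.61. At 50 days it stood at 93.6 and 106 CPM against 20.7 CPM in the single control (log2 fold change 2.31 ± 0.52, adjusted p = 0.0646, edgeR). At 170 days it stood at 42.3 and 46.8 CPM in R&Zdel and at 9.91 and 8.51 CPM in R&Zflox livers (2.27 ± 0.40, adjusted p = 0.0678, edgeR).

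Both later calls were sensitive to single libraries. Without R&Zdel replicate 1 the value at 50 days was 2.40 (adjusted p = 0.159, range over alternatives 2.06e-09 to 0.159). At 170 days the call of Lpl was lost in 3 of 4 fits that left out a library (adjusted p 0.167 to 0.347). Macrophages also make Lpl, and the 12 macrophage and Kupffer cell markers summed to 532 to 941 CPM in R&Zdel and 884 to 2097 CPM in R&Zflox livers at 4 days. At 50 days they summed to 280 to 650 CPM against 578 CPM, and at 170 days to 234 to 279 and 296 to 443 CPM. The adipocyte marker Cfd averaged 7.03 CPM in R&Zdel and 67.4 CPM in R&Zflox livers at 170 days. Their part in the Lpl values was not tested.

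Pltp had lost its undamaged difference at 4 days, at 59.7 and 80.5 CPM in R&Zdel and 90.6 and 133 CPM in R&Zflox livers. At 50 days it stood at 164 and 175 against 194 CPM. At 170 days the R&Zdel livers stood at 581 and 433 CPM, the level of undamaged R&Zdel livers, and the R&Zflox livers at 93.9 and 284 CPM. The values were apart, as for 37.7% of all genes at 170 days, but the log2 fold change of 1.43 ± 0.44 was not called (adjusted p = 0.318, edgeR). Over the groups of batch 1, mean Pltp was highest in R&Zdel at 7M (561 ± 26.7 CPM, SD, n = 2) and at CD 170d (507 ± 104), which did not differ beyond their spread, and lowest in R&Zdel at CD 4d (70.1 ± 14.7).

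Of the sterol pumps, Abcg8 stood at 14.9 and 9.34 CPM in R&Zdel and at 20.2 and 20.8 CPM in R&Zflox livers at 4 days. At 170 days it stood at 48.0 and 70.4 against 22.8 and 22.6 CPM. R&Zdel livers were below both controls early and above both late, and the difference between these fold changes, 2.09 ± 0.40, was called (adjusted p = 0.0315, edgeR), although neither fold change was on its own (-0.70 ± 0.28, adjusted p = 0.112, and 1.38 ± 0.28, adjusted p = 0.111). It was lost without R&Zdel CD 170d replicate 2 (1.79, adjusted p = 0.115) or R&Zflox CD 4d replicate 1 (2.12, adjusted p = 0.121), the latter the highest of its alternatives, which began at 1.25e-08.

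Abcg5 stood at 33.0 and 17.4 against 31.2 and 38.1 CPM at 4 days and at 65.3 and 86.8 against 43.7 and 30.5 CPM at 170 days. Its fold change at 170 days, 1.03 ± 0.30, was not called (adjusted p = 0.294, edgeR). Abca1 stood at 61.4 and 52.6 against 64.6 and 77.7 CPM at 4 days, at 43.5 and 53.8 against 78.4 CPM at 50 days, and at 53.7 and 51.1 against 61.4 and 66.0 CPM at 170 days. These R&Zdel values of Abca1 were below the controls at each time, with no call (adjusted p = 0.319, 0.121 and 0.728, edgeR). The sign of Abca1 and Abcg5 at 4 days, of Pltp at 50 days and of Apob at 170 days turned without TMM scaling.

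Lipc stood at 110 and 106 CPM in R&Zdel and at 180 and 148 CPM in R&Zflox livers at 4 days. The groups were apart, as for 68.2% of all genes at that time, and the fold change, -0.54 ± 0.24, was not called (adjusted p = 0.149, edgeR). At 170 days Lipc had returned to 309 and 370 against 231 and 315 CPM, an overlap.

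Livers at 4 days after CCl4 were also compared with undamaged livers of the same genotype and batch, and the changes of the genotypes were compared with each other. In R&Zflox livers 4 of 10 genes were called, against 6.83% of the 12608 genes tested, and in R&Zdel livers 8 of 10 were, against 43.8%. The difference between genotypes was called for 4 of 10, against 22.6%.

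In R&Zflox livers, Lpl rose by a log2 fold change of 2.96 ± 0.52 (adjusted p = 0.0116) and Apoa4 by 2.37 ± 0.62 (adjusted p = 0.0611), while Abcg8 stood at -0.95 (adjusted p = 0.0747) and Lipc at -0.80 (adjusted p = 0.0769, edgeR). Undamaged R&Zflox livers of the batch held Lpl at 7.81 to 21.3 CPM and Lipc at 279 to 308 CPM, apart from the damaged ones. The calls of Abcg8 and Lipc were lost in 5 and 4 of 6 fits that left out a library (largest adjusted p 0.389 and 0.518 over all alternatives). Without R&Zflox CD 4d replicate 2, Lpl was no longer called, at 2.13 (adjusted p = 0.123), the largest of its alternatives. Apoa4 lost its call in 3 of 6 such fits, with adjusted p values of up to 0.231 over its alternatives.

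In R&Zdel livers, the log2 fold change was -3.14 for Abcg8, -3.07 for Pltp, -2.60 for Abcg5 and -1.60 for Lipc, and Lpl rose by 3.29. The undamaged R&Zdel livers of batch 1 held Pltp at 480, 542 and 580 CPM and Abcg8 at 78.5, 95.7 and 73.5 CPM, all far above the damaged ones. These 5 calls were kept in 13 of 13 alternatives. On the same scale Apoa1 stood at -1.08, Mttp at -1.07 and Apob at -0.63, and these calls were kept in 7, 10 and 7 of 13. Without TMM scaling the median of all genes in this comparison moved from 0.08 to 0.81, a shift of 0.73, and the fold change of Apob turned to 0.09. Relative to the median, Apob remained lower on both scalings.

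The fall was larger in R&Zdel than in R&Zflox livers for Pltp (difference -2.56 ± 0.72, adjusted p = 0.0407), Abcg8 (-2.19 ± 0.37, adjusted p = 0.00776) and Abcg5 (-1.88 ± 0.44, adjusted p = 0.0234), and Apoa4 differed by -2.35 ± 0.86 (adjusted p = 0.091, edgeR). With undamaged livers at 7M alone as the reference, none of these 4 differences was called (adjusted p 0.124 to 0.268), and Apoa4 stood at -4.19. Leaving out 1 library also ended the call in 5 of 10 fits for Apoa4, 3 for Pltp, 1 for Abcg5 and 0 for Abcg8. Lpl, at 0.32 ± 0.68, gave no difference between genotypes that passed, with a 95% interval of -1.02 to 1.66.

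Cell markers moved with these changes. The pericentral genes summed to 2925 to 4231 CPM in R&Zdel and 3263 to 4422 CPM in R&Zflox livers at 4 days, below every undamaged liver, and to 23214 to 23679 and 12189 to 13035 CPM at 170 days. The cholangiocyte markers, of which 6 of the 6 tested were higher in R&Zdel livers, summed to 2731 to 4324 CPM in R&Zdel and 94.9 to 164 CPM in R&Zflox livers at 4 days. The stellate cell markers summed to 285 to 695 and 225 to 326 CPM. Their part in the results was not tested.

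**Figure D5:**
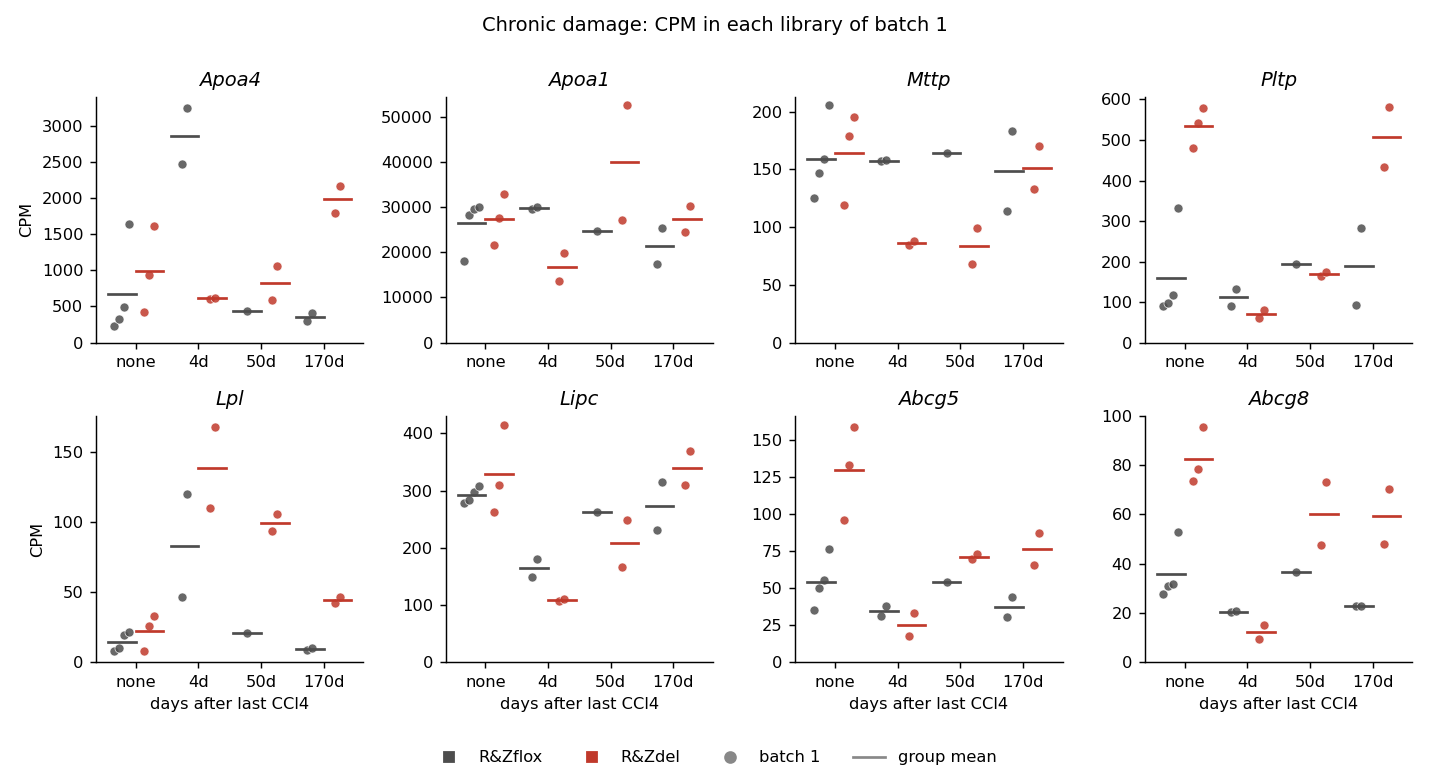
CPM of 8 genes in each library of batch 1 without damage (none) and at 4, 50 and 170 days after the last CCl4, R&Zflox in grey and R&Zdel in red, with a bar for the group mean. Apoa4 of R&Zdel livers lies below the controls at 4 days, at 605 and 619 against 3258 and 2472, and above them at 170 days, and Pltp and Abcg8 of R&Zdel livers are lowest at 4 days.

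The wider pathway was described by lists that also hold the members. Their counts are read against the share of all genes called, which was 2.58% over the undamaged times, 27.6% at CD 4d and 7.60% at CD 50d. Of 14 apolipoproteins, 0 were higher and 2 lower over the mean of the undamaged times, namely Apon (log2 -0.83 ± 0.13, adjusted p = 0.000366) and Apof (-0.54 ± 0.14, adjusted p = 0.0381), both carried on plasma lipoproteins. At CD 4d 7 of the 14 were lower and 0 higher, with a median of -0.86 against 0.06 for all genes, of which 27.6% were called in either direction. Among the largest falls beside Apoa4 were Apon, at 285 against 974 CPM on average, and Apom, an apolipoprotein of high density lipoprotein, at 305 against 945 CPM.

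Of 19 genes of VLDL assembly and secretion, none passed over the undamaged times, with a median of 0.08 against -0.03 for all genes. At CD 4d 1 was higher and 7 were lower, with a median of -0.51. Sort1, a sorting receptor that binds apolipoprotein B, was the one higher (1.23 ± 0.28, adjusted p = 0.0188), and Aadac (-1.45 ± 0.35) and Plin2, a coat protein of lipid droplets (-1.25 ± 0.28), were lower. At CD 50d 1 was higher, again Sort1 (1.80 ± 0.37, adjusted p = 0.0563), and 3 were lower.

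Of 15 lipases, their regulators and transfer proteins, Pltp was the only one higher over the undamaged times (edgeR). At CD 4d 1 was higher, the LPL regulator Angptl8 (2.50 ± 0.70, adjusted p = 0.0379), and 3 were lower, namely Lcat, which esterifies cholesterol on high density lipoprotein (-1.09 ± 0.25), Apoc2, the activator of LPL (-0.87 ± 0.16), and Apoa5 (-0.84 ± 0.31). These 4 of 15 are near the 27.6% of all genes.

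Of 19 tested genes of sterol transport and the LXR axis, 3 were higher and 1 lower over the undamaged times. Beside Abcg8 these were Cyp27a1, a sterol hydroxylase of bile acid synthesis (0.87 ± 0.13, adjusted p = 0.000152), and Abcb4, the phospholipid flippase of bile (0.55 ± 0.13, adjusted p = 0.0288), while Abcb11, the bile salt export pump, was lower (-0.51 ± 0.15, adjusted p = 0.0801, edgeR). At CD 4d 0 were higher and 5 lower, among them Scp2, a sterol carrier (-1.92 ± 0.32), and the cholesterol esterifying Soat2 (-1.36 ± 0.25), again a share near that of all genes. At PHx 21d the LXR gene Nr1h2 was the one called (1.98 ± 0.38, adjusted p = 0.0189, edgeR). Of 12 lipoprotein receptors, none passed over the undamaged times, and at CD 4d 1 was higher and 2 lower, a share near that of all genes. The one higher was Vldlr, at 6.92 against 0.285 CPM on average (log2 4.63 ± 0.50, adjusted p = 0.00124, edgeR). The lower ones were Scarb1, the receptor of high density lipoprotein, at 106 against 193 CPM, and Lsr, at 242 against 433 CPM. Vldlr was also higher at CD 170d (2.83 ± 0.44, adjusted p = 0.0395, edgeR), at 8.66 against 1.20 CPM. Of 12 regulators of apolipoprotein genes, none passed over the undamaged times, and at CD 4d 5 were lower, among them Creb3l3, a factor of triglyceride genes (-1.04 ± 0.26, adjusted p = 0.0256), and Cebpa (-1.01 ± 0.24, adjusted p = 0.0226).

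Across the means of 10 groups of batch 2, each correlated over 8508 genes, the closest profiles to that of Apob were Creld2 (Pearson's r = 0.937) and Sdf2l1 (0.931). Both of these are chaperone-related genes of the endoplasmic reticulum. The closest to Abcg5 was Gprin3 (0.944), to Lpl Fbxo4 (0.932), to Apoa4 Dynlrb1 (0.948), and to Pltp 2310009B15Rik and Ubap2 (0.914 each). Among the members themselves, Apoa4 and Apob had r = 0.85 and Abcg5 and Abcg8 r = 0.33. The groups share a batch, 1 of them is a single library, and with 10 points and 8508 genes such values are a description only.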

How the data were processed

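Liver RNA was sequenced by the authors from Smart-Seq2 libraries, and the deposited files hold raw counts of reads per gene, as integers, without normalization. The submitters' processing notes name Trim Galore, STAR 2.5.0a, featureCounts 1.5.0-p1 and 1.5.0-p3, and mm10. Batch 1 headers name a RefSeq annotation of mm10, while the study's methods name a UCSC one. Reads were counted without strand. Groups came from the sample records, and sex from the study's sample list. In all 3 libraries could not be assigned to a group, 2 samples were not analysed here, and 2 more libraries, of unlisted sex or conflicting genotype, entered alternatives only.

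Counts were fitted with edgeR 4.0.16 (R 4.3.3; quasi-likelihood test, TMM factors, limma 3.58.1) after the models in the study's methods. Genes with a CPM over 1 in at least 3 libraries (6 for CD) were kept. The undamaged model (25 libraries) had terms for genotype by time, sex and batch, the PHx model (20, with the 1M livers) for group and sex, and the CD model (11) for group. The CD 4d livers were set against undamaged livers of batch 1 in a model of 18 libraries with a sex term. Calls were made at a Benjamini-Hochberg adjusted p under 0.1 over all genes tested, two-sided. CPM in the text are per TMM-scaled library. P-values measure the spread between these mice, and counting error alone is smaller. The models were tested on simulated counts.

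Named genes were the 10 members in each comparison, and of every other list at most the 3 called genes with the largest change in each direction and a mean CPM above 5. The 10 members and all lists, thresholds and alternatives were chosen with earlier results of these data known. Alternatives were DESeq2 1.42.0 (size factors, and its Wald test), no TMM factor, no filter, edgeR's likelihood ratio test, a fold threshold, a replicate block, males or a batch or a time alone, other placements of the libraries in conflict, other reference livers, and each library left out.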

Additional observations from a re-analysis of the deposited data

Results flagged for a closer look

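Of 50 sets, each the values of a gene in a group of 4 to 10 libraries, 4 held a value far from the others. Chance gives about 1 in 20 for independent sets. These sets share livers, and those of 3M and 7M pool both batches, so that this rate is no background here. Lpl stood at 84.1 CPM in R&Zflox 7M replicate 4 of batch 2, where the next value was 21.3. Apoa1 stood at 20722 CPM in R&Zflox 3M replicate 5 of batch 2, where the next was 28323. Pltp stood at 332 CPM in R&Zflox 3M replicate 3 of batch 1, where the next was 102. Lpl stood at 19.3 CPM in R&Zflox 3M replicate 2 of batch 1, where the next was 9.83.

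The effect of the deletion differed between times or damage states for 4 genes, by the test of the difference itself (edgeR). For Apoa4 the log2 fold change at CD 50d exceeded that at CD 4d by 3.12 (adjusted p = 0.0476), and that at CD 170d exceeded it by 4.65 (adjusted p = 0.00786). For Abcg8 the latter difference was 2.09 (adjusted p = 0.0315). Of all genes, 1.50% were called in the first of these differences and 7.66% in the other. The call of Apoa4 for CD 50d was lost on leaving out any CD 4d library. The change from undamaged livers to CD 4d differed between R&Zdel and R&Zflox livers by -1.88 for Abcg5 (adjusted p = 0.0234), -2.19 for Abcg8 (adjusted p = 0.00776), -2.35 for Apoa4 (adjusted p = 0.091) and -2.56 for Pltp (adjusted p = 0.0407).

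In 5 libraries of batch 1 that entered no comparison, 5 of the 10 genes lay above the highest undamaged R&Zflox value of that batch in 1 or more, which was 332 CPM for Pltp, 52.9 for Abcg8, 76.5 for Abcg5, 21.3 for Lpl and 308 for Lipc. Pltp stood at 358 CPM in the R&Zdel 7M liver of unlisted sex, at 445 CPM in the 3M liver whose genotype records conflict, and at 404 and 342 CPM in unassigned livers. Abcg8 stood at 67.7 CPM in the R&Zdel 7M liver of unlisted sex, at 72.6 CPM in the 3M liver in conflict, and at 54.8, 74.4 and 55.3 CPM in the unassigned livers. Abcg5 stood at 108 CPM in the R&Zdel 7M liver of unlisted sex, at 116 CPM in the 3M liver in conflict, and at 101, 129 and 108 CPM in the unassigned livers. Lpl stood at 41.2 CPM in the liver of unlisted sex, at 27.5 CPM in that in conflict and at 62.4 CPM in 1 unassigned liver, and Lipc at 327 CPM in 1 unassigned liver.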

How the results depend on the processing

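Of 4250 fold changes of the 10 genes under an alternative, 4075 kept their side of the threshold, of which 3806 also kept their direction and 269 changed sign without a call on either side (22 of them without TMM scaling and 143 on leaving out 1 library). A further 70 lost and 104 gained a call, and 1 called value reversed, namely Apob at CD 4d against undamaged R&Zdel livers, at 0.09 without TMM scaling. Of 440 group levels in CPM under another scaling, 132 moved by more than the spread between replicates. Of 425 counts of genes called, 356 stayed within 1.5 times the main count. The counts below are given without the share of all genes called under each alternative, so that they are not read against a background.

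Leaving out 1 library at a time gave 0 to 0 genes called at 1M, 0 to 1 at 3M, 1 to 2 at 7M and 2 to 3 over their mean. It gave 1 to 3 at CD 4d, 0 to 3 at CD 50d, 0 to 3 at CD 170d, 0 to 2 and 1 to 5 for the differences of 50 and 170 from 4 days, 0 to 4 and 5 to 8 for CD 4d against undamaged R&Zflox and R&Zdel livers, and 1 to 5 for their difference.

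Without the filter on low counts the calls were 2 at 3M, 3 at 7M, 1 for the difference of 7M from 1M, 1 at PHx 7d, 2 and 2 for PHx 7d against 1M in R&Zflox and R&Zdel livers and 1 for their difference, 6, 2 and 5 at CD 4d, 50d and 170d, and 3 and 7 for the differences between them. With DESeq2's Wald test they were 2 at 3M, 3 at 7M, 1 at PHx 7d, 1 for R&Zflox PHx 7d against 1M, 1 for the difference between PHx times, 1 for that of PHx 7d against 1M between genotypes, 5, 3 and 5 at the CD times, 3 and 6 for their differences and 7 for the genotype difference in CD 4d against undamaged livers. With the likelihood ratio test they were 1 at 3M, 1 for PHx 7d against 1M between genotypes, 2 at CD 50d, 5 at CD 170d, and 2 and 5 for the CD differences. With DESeq2 size factors the difference of CD 170d from 4d called 4.

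With a time fitted alone the calls were 1 at 1M, 5 at CD 4d and 0 at CD 170d. In batch 1 alone and batch 2 alone 7M called 0 and 0, and males alone called 1 over the mean of the times. With the library in conflict as R&Zdel 3M, 3M called 1, and with the R&Zflox CD 170d livers, which the study also lists at 50 days, counted there, CD 50d called 6. With undamaged 7M livers alone as the reference, the R&Zflox comparison called 2 and the genotype difference 0. Asking for an absolute log2 fold change over 1 left 1 at CD 4d and 2 for CD 4d against undamaged R&Zflox livers. The causes were not tested.

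Replicate numbers did not pair the livers: of 20 pairs across genotypes, 4 correlated above 0.1 (range -0.46 to 0.45), and 4 livers correlated best with their own number. With the replicate block, CD 4d against undamaged R&Zflox livers called 2 in place of 4, and the other counts stayed within 1.5 times. Fits without the single R&Zflox CD 50d library, or without the only undamaged R&Zdel 3M library of batch 1, gave no value.

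Groups of 1 or 2 livers limit the CD comparisons, and a lone liver was assumed to vary like the other groups. CD and PHx cannot be told apart from batch, nor at 3M the route of deletion from batch. Time after CCl4 likewise runs with time after deletion. Lpl had the fewest counts.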
